A study of Bos taurus with 20 samples.

Results

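Cumulus expansion is the swelling of the cell layer around the oocyte as it resumes meiosis, and the space between the cells is filled by a matrix built on hyaluronan. The genes described here are 7 genes of this matrix, chosen by name: the hyaluronan synthases HAS2 and HAS3, the cross-linking proteins TNFAIP6 and PTX3, the proteoglycan VCAN, and the hyaluronan receptors CD44 and HMMR. They were found among the 22550 genes or transcripts of a custom bovine Agilent array by the gene name of each non-control probe. That name found 6 of the 7, and TNFAIP6, listed on the array under its older name TSG-6, was found through its RefSeq accession. The 7 genes had 28 probes, and these carried 17 distinct sequences of the 50909 on the array.

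Gene expression was measured on 20 one-colour arrays, for which 200 ng of total RNA per sample was labelled with Cy3, with 4 biological replicates in each of 5 groups. The groups were immature theca cells (TH), scraped from the follicle wall, immature granulosa cells (GC), immature cumulus cells (CC), cumulus cells detached after 4 h of in vitro maturation (CC after IVM), and immature oocytes. All came from antral follicles of 3 to 6 mm in slaughterhouse bovine ovaries, and neither the age of the animals nor the composition of the maturation medium for these arrays is given in the labels. A gene expression value here is taken as the median of its spots, each as log2 processed intensity minus the 75th percentile of its array, so that 0 is the level of that percentile, and all values and differences below are on this log2 scale. The number of arrays limits the precision.

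Between 49.3% and 68.8% of the probes on an array were well above background, and no probe was saturated. The summed level of the theca markers was highest on the TH arrays, that of the oocyte markers on the oocyte arrays, and that of the granulosa and cumulus markers on the arrays of CC after IVM. Of the last list INHBA was called higher after IVM than in CC, and the other 3 markers, FSHR, CYP19A1, and AMH, were called lower (list median -1.14). Of the 5 theca markers 4 were read in both cumulus groups, with INSL3 at a mean of 4.54 in CC and 4.39 after IVM, and CYP17A1 was not above background on any array of either. None of the 5 was called between the cumulus groups, and their summed level was 4.66 to 5.03 in CC and 4.50 to 4.89 after IVM, against 9.17 to 9.70 in TH. The 4 arrays of CC after IVM were all hybridized on 1 slide, apart from the CC arrays, which were on 2 other slides with the remaining groups, so slide and maturation cannot be told apart. The arrays of CC after IVM were also dimmer (75th percentile of intensity 284 to 396, against 536 to 657 on the CC arrays), and the lowest signal well above background lay at -5.12 to -4.59 there and at -5.73 to -5.26 on the CC arrays. The oocyte arrays were brighter (1521 to 2891). Their lowest signal well above background ran from -6.84 to -4.02, highest on replicate 2, so a level read on another oocyte array could go unread on that one. Over all genes the median difference of CC after IVM from CC was 0.37. It was 0.05 for the 11888 genes read above background on each of the 8 arrays, and 0.68 for the 4461 genes read on none of them, of which 62.1% were called higher.

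Hyaluronan is a long sugar chain spun out at the cell surface by the HAS enzymes from UDP-sugars. TNFAIP6 transfers the heavy chains of the serum inter-alpha-trypsin inhibitor onto hyaluronan, PTX3 binds these heavy chains as a multimer, and VCAN binds hyaluronan through its G1 domain, so that the strands are held together. CD44 anchors hyaluronan to the cell surface, and HMMR binds hyaluronan but is also a protein of the mitotic spindle. In cumulus cells this program follows the luteinizing hormone surge through EGF-like ligands.

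The probes are shown because what the array says of HAS3 and CD44 depends on which sequence is read, while the probes of TNFAIP6 and VCAN gave like differences. Each sequence is written 5′ to 3′ as on the array, in lower case, and the capitals mark the stop codon that ends HAS3 probe 1 and the 50 bases shared by both TNFAIP6 probes.
HAS3 probe 1: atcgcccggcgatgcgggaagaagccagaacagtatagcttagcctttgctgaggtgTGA
HAS3 probe 2: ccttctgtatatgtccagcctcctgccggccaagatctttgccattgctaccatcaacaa
TNFAIP6 probe 1: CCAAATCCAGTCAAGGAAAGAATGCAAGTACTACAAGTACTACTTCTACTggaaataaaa
TNFAIP6 probe 2: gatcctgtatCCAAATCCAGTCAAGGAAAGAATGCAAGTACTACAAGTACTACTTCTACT
VCAN probe 1: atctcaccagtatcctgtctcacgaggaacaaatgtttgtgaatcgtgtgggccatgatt
VCAN probe 2: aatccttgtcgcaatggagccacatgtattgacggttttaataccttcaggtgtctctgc
CD44 probe 3: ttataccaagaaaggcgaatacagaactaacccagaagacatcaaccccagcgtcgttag
CD44 probe 4: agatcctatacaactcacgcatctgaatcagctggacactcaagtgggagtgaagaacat

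In the array annotation (build UMD 3.1), the transcripts read by the probes of these genes, shown or not, span chr14:19703611-19733798 for HAS2, chr18:36449383-36455306 for HAS3, chr2:44850892-44867293 for TNFAIP6, chr1:111027804-111033868 for PTX3, chr7:85666058-85782896 for VCAN, and chr7:77271070-77303644 for HMMR. CD44 has 3 transcripts there, and the outermost span chr15:66454331-66541790. The annotation gives the span of the transcript and not the place of the probe, so which exon a probe reads was not analysed here. The 2 VCAN sequences are each printed on the array 4 times, once for each of 4 transcripts, so the array does not separate the VCAN transcripts.

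The main question is how these genes differ between CC after IVM and CC. By limma over the 8 arrays, with Benjamini-Hochberg adjustment over all 22550 genes, 4 of the 7 genes passed the threshold of 0.05. HAS2, TNFAIP6, and CD44 were higher after IVM and HMMR was lower, while HAS3, PTX3, and VCAN did not pass. This stands against 45.8% of all genes called in this comparison (30.3% higher and 15.5% lower), so the share called among the 7 is near the background and the sizes below carry the description. The arrays of the groups did not overlap for the same 4 genes, and 44% of all genes did not overlap. These are bulk samples, in which fewer cells of a type and less RNA per cell cannot be told apart.

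**Figure D1:**
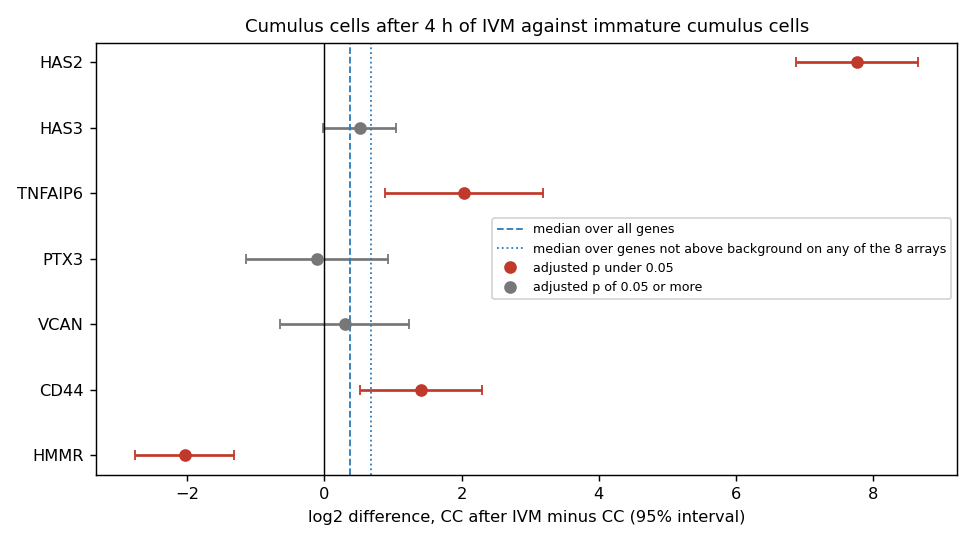
Difference in log2 gene expression value between cumulus cells after 4 h of IVM and immature cumulus cells for each of the 7 genes (point, estimate from 4 and 4 arrays; bar, 95% interval), with red for an adjusted p under 0.05. HAS2 stands at 7.76 and HMMR at -2.04, the intervals of HAS3, PTX3, and VCAN include 0, and the vertical lines mark the median difference over all genes (0.37) and over genes above background on none of the 8 arrays (0.68).

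HAS2, the synthase that cumulus cells mainly use during expansion, had the largest difference among the 7 genes. Its values on the 4 CC arrays were -5.13, -6.31, -4.79, and -6.02, and only the first and the third of these were above background. On the arrays of CC after IVM they were 2.59, 1.495, 1.94, and 2.77, all above background. The lowest of these lay far above the highest CC array. The mean was -5.56 ± 0.72 (SD, n = 4) in CC and 2.20 ± 0.59 (n = 4) after IVM, a difference of 7.76 (SE 0.40, 95% interval 6.87 to 8.66, adjusted p = 3.3e-06). Because HAS2 was above background on only 2 of the 4 CC arrays, it is given as at least 160-fold higher after IVM, against the lowest signal well above background of each CC array where the gene was below it. By the same rule the 2 HAS2 probes were at least 208-fold and 136-fold higher.

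HAS2 was also read in the oocyte. The 4 oocyte arrays held -0.44, -0.47, -0.71, and -0.56, all above background. On the TH arrays it was never above background (-7.68 to -7.43), and on the GC arrays only replicate 4 was, by 1 of its 2 sequences (-7.49 to -7.13). The order of the means was CC after IVM, oocyte, CC, GC, and TH. In the fit of all 20 arrays CC after IVM exceeded the oocyte by 2.74 (adjusted p = 1.0e-07), the oocyte exceeded CC (adjusted p = 1.6e-11) by at least 23.9-fold, and GC and TH did not pass (adjusted p = 0.64). CC was called over GC (adjusted p = 8.8e-04), but with 2 CC arrays and 1 GC array above background the size of this step was not measured. The call was lost in the 16-array fit with normexp background correction, where GC minus CC was 0.03 (adjusted p = 0.93), in the deposited table (-0.38, adjusted p = 0.18), on the brightest probe (-0.53, adjusted p = 0.63), and within either slide (-1.71 and -1.78, adjusted p = 0.14 and 0.093). The summed level of the 6 oocyte markers was -0.83 to 1.59 on the CC arrays and -2.64 to -0.84 after IVM. Of these ZP2, ZP3, ZP4, and NLRP5 were called lower after IVM, and GDF9 and BMP15 were not called. The part of oocyte RNA in the HAS2 values of the cumulus groups was not tested.

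HAS3, a second synthase, was not called between the cumulus groups. It held -4.90, -4.08, -4.58, and -4.81 on the CC arrays and -4.24, -4.23, -3.71, and -4.12 after IVM, so the groups overlapped. The difference was 0.52 (SE 0.24, 95% interval -0.01 to 1.05, adjusted p = 0.0985). Without CC replicate 2 it passed (0.69, adjusted p = 0.046), as it did with normexp background correction (0.62, adjusted p = 6.7e-04).

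The value of HAS3 combines a probe that was read with one that was not. Probe 1, which ends at the stop codon, was above background on no TH, GC, CC, or CC after IVM array and on 3 oocyte arrays. Probe 2 was above background on all 20 arrays, with means of -1.15 in TH, -1.11 in GC, -2.03 ± 0.24 in CC, -1.40 ± 0.69 after IVM, and -3.22 in the oocyte. On probe 2 alone, TH exceeded CC by 0.88 (adjusted p = 0.013), and CC after IVM minus CC was 0.63 (adjusted p = 0.15), each adjusted over 51307 pairs of gene and sequence. One array after IVM, replicate 3, stood at -0.37 and the other 3 at -1.79 to -1.69.

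**Figure D2:**
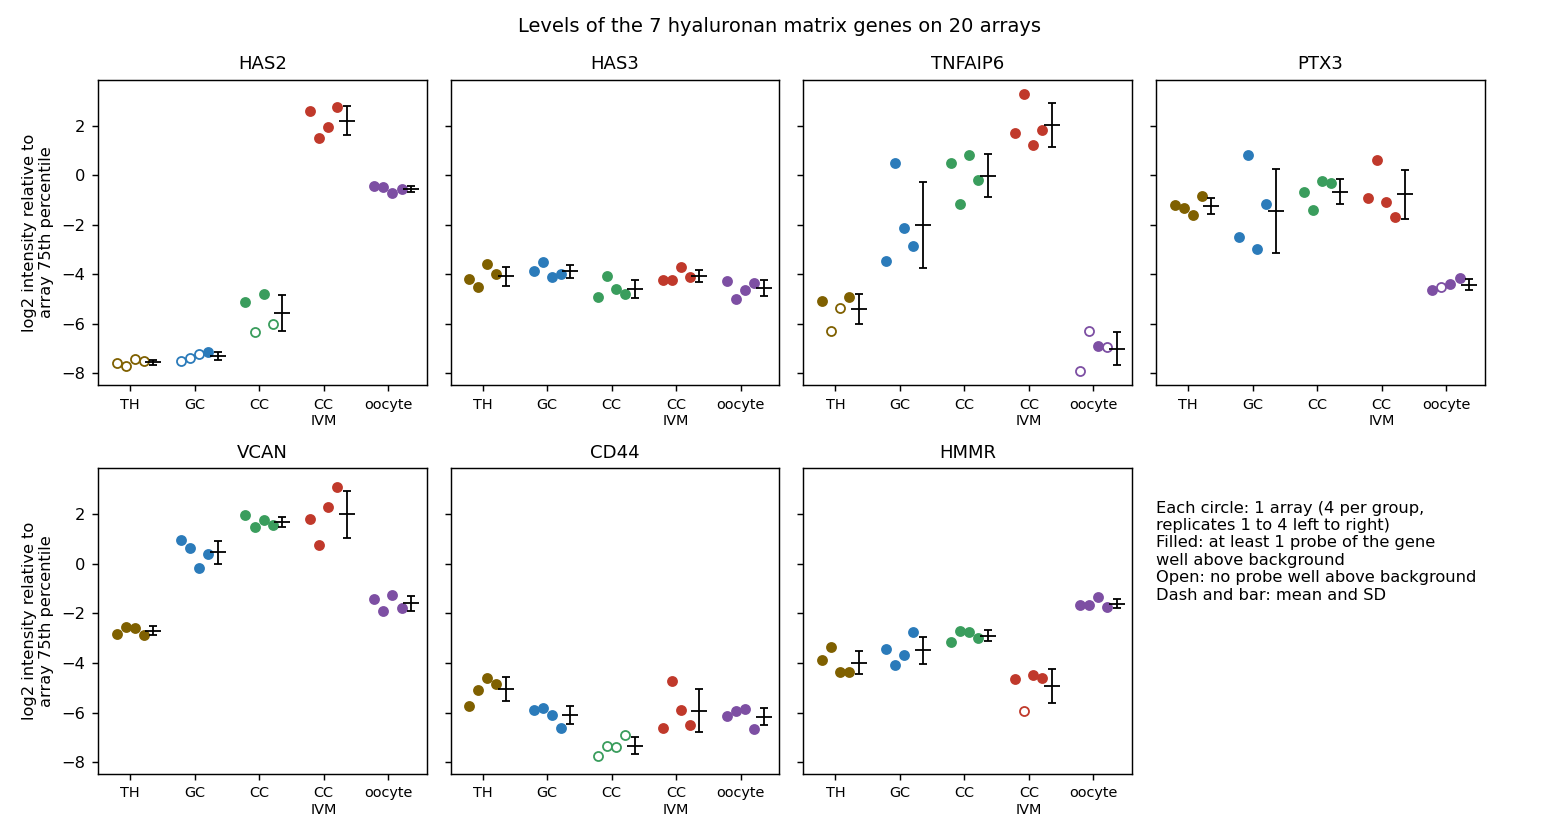
Gene expression value (log2 intensity relative to the 75th percentile of the array) of each of the 7 genes on each of the 20 arrays in TH, GC, CC, CC after IVM, and oocyte, with filled circles where at least 1 probe was above background and bars for mean and SD (n = 4). HAS2 lies at 1.495 to 2.77 after IVM and at -6.31 to -4.79 in CC, VCAN overlaps between the cumulus groups, and HMMR is lowest after IVM.

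TNFAIP6, which loads heavy chains onto hyaluronan, rose after IVM. Its values were 0.49, -1.16, 0.81, and -0.18 on the CC arrays and 1.72, 3.30, 1.22, and 1.84 after IVM. Every array after IVM lay above every CC array, with replicate 2 the highest after IVM. The mean rose from -0.01 ± 0.87 (SD, n = 4) to 2.02 ± 0.89 (n = 4), a difference of 2.03 (SE 0.51, 95% interval 0.88 to 3.18, adjusted p = 0.013) or 4.09-fold. The probes gave 2.01 and 2.05.

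Among the immature cells TNFAIP6 was highest in CC. The GC arrays held -3.46, 0.48, -2.15, and -2.86, and replicate 2 reached the range of CC, so GC and CC overlapped (difference -1.98, adjusted p = 0.092). On TH arrays it lay at -6.28 to -4.90, above background on 2 of 4, and on oocyte arrays at -7.91 to -6.28, above background on 1 of 4. CC exceeded TH by at least 35.1-fold (adjusted p = 1.7e-05) and the oocyte by at least 59.4-fold (adjusted p = 2.1e-07).

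PTX3, the multimeric partner of the heavy chains, showed no detected difference after IVM. The CC arrays held -0.67, -1.39, -0.25, and -0.33, and the arrays after IVM -0.90, 0.61, -1.08, and -1.70. The groups overlapped throughout. The difference was -0.11 (SE 0.46, 95% interval -1.14 to 0.93, adjusted p = 0.86). PTX3 was read on all arrays but oocyte replicate 2, and neighbours among the 4 somatic groups, in the order CC, CC after IVM, TH, and GC, did not pass the threshold (adjusted p 0.51 to 0.90), whereas GC exceeded the oocyte by 2.96 (adjusted p = 2.2e-04 over 20 arrays), or by 2.21 without GC replicate 2. The GC arrays were the most spread, at -2.48, 0.80, -2.99, and -1.14, and replicate 2 was the highest GC array for PTX3 as for TNFAIP6. After IVM replicate 2 was likewise the highest array for both genes.

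VCAN, the proteoglycan of the expanding matrix, was not called between the cumulus groups. The CC arrays held 1.97, 1.51, 1.77, and 1.56, and the arrays after IVM held 1.83, 0.78, 2.30, and 3.09. The arrays after IVM were spread on both sides of the CC arrays, with replicate 2 the lowest and replicate 4 the highest. The means were 1.70 ± 0.21 (SD, n = 4) and 2.00 ± 0.97 (n = 4), a difference of 0.30 (SE 0.42, 95% interval -0.64 to 1.24, adjusted p = 0.58). The sign turned without replicate 4 after IVM (-0.07, adjusted p = 0.89) and in the deposited log2 table (-0.11, adjusted p = 0.82).

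Across the follicle VCAN stepped down from cumulus to granulosa, oocyte, and theca. The GC arrays held 0.95, 0.66, -0.16, and 0.42, the oocyte arrays -1.91 to -1.27, and the TH arrays -2.85 to -2.53. No GC array reached a CC array, and CC exceeded GC by 1.24 (SE 0.23, adjusted p = 0.0023). CC exceeded the oocyte by 3.30 (adjusted p = 2.7e-09) and TH by 21.1-fold (adjusted p = 1.7e-09). Within a single slide the step from CC to GC was 0.94 on the first (adjusted p = 0.26) and 1.54 on the second (adjusted p = 0.065), with 2 arrays a group.

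CD44, the cell surface receptor that tethers hyaluronan, was not above background on any CC array. Its gene value was -7.74, -7.33, -7.38, and -6.91 there, and -6.62, -4.72, -5.90, and -6.48 after IVM. No array after IVM was as low as a CC array, and replicate 2 stood out as the highest. The difference was 1.41 (SE 0.40, 95% interval 0.52 to 2.30, adjusted p = 0.021), and no fold is given because the mean after IVM did not exceed the lowest signal well above background on the CC arrays. The call was lost with quantile normalization (1.01, adjusted p = 0.16) and without CC replicate 1 (1.27, adjusted p = 0.060).

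The probes of CD44 did not read alike. Of its 5 sequences, probes 1 and 4 were each above background on 3 arrays after IVM and on no CC array. Probe 1 held -4.33, -1.88, -2.78, and -5.71 after IVM and was at least 3.33-fold higher than in CC (3.13, adjusted p = 0.020). Probe 4 held -6.88, -4.32, -4.46, and -3.16 and was at least 1.63-fold higher (2.88, adjusted p = 0.012). The array below background after IVM was replicate 4 for probe 1 and replicate 1 for probe 4, so these sequences did not order the arrays in the same way. Probes 2, 3, and 5 were above background on no array of either cumulus group, and their differences of 1.18, 0.80, and 0.75 stand beside the 0.68 of genes read nowhere on these arrays. In TH, probes 1 and 4 were above background on all 4 arrays, at -1.13 to -0.997 and -3.60 to -3.15. TH exceeded CC by at least 20.3-fold on probe 1 (adjusted p = 2.7e-07) and at least 3.99-fold on probe 4 (adjusted p = 1.2e-06).

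**Figure D3:**
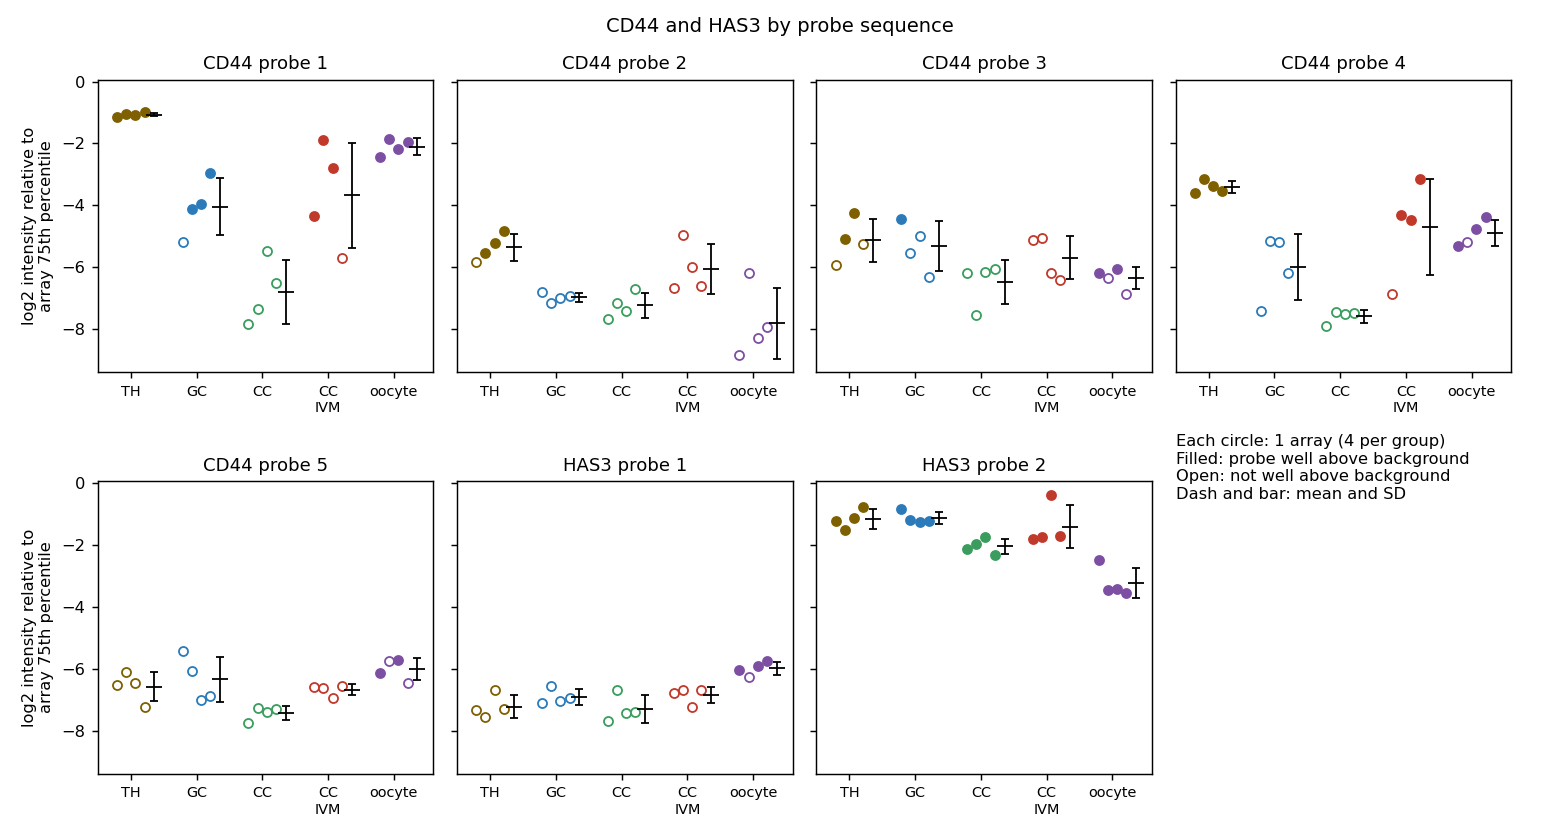
Log2 intensity relative to the 75th percentile of the array for each of the 5 CD44 and 2 HAS3 probe sequences on the 20 arrays, with filled circles where the probe was above background and bars for mean and SD (n = 4). CD44 probes 1 and 4 and HAS3 probe 2 are the sequences read on 3 or more arrays after IVM, and the other probes stay mostly open.

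Leukocytes are cells known to carry CD44. Of 6 leukocyte markers, CD68, CD14, and PTPRC were called higher after IVM, where 30.3% of all genes were. CSF1R, AIF1, and CD3E were not called. The summed level of the list was -2.16 to -0.35 on the CC arrays and -0.18 to 1.17 after IVM. It was 1.91 to 2.62 in TH and higher still in the oocyte (3.60 to 3.89), so the summed level was not particular to leukocytes on these arrays. In the oocyte CSF1R had a mean of 3.70 and CD3E of -0.07, while PTPRC, AIF1, CD14, and CD68 had means of -7.79 to -6.01. After IVM, CD68 rose by 2.15 (adjusted p = 0.0019) and CD14 by 2.33 (adjusted p = 0.043) over CC. PTPRC differed by 0.70 (adjusted p = 0.024) and was above background on none of the 8 arrays. The median difference of genes read on none of them was 0.68. CSF1R differed by 0.35 (adjusted p = 0.69), and its mean was highest in the oocyte (3.70, against 1.60 in TH). The endothelial markers VWF (at least 1.64-fold, adjusted p = 0.0039) and CDH5 (0.71, adjusted p = 0.023) were called higher too. CDH5 was above background on none of the 8 arrays, and PECAM1 was not called. The part of such cells in the CD44 result was not tested.

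HMMR, the receptor that also sits on the spindle, fell after IVM. The CC arrays held -3.15, -2.71, -2.74, and -2.97 and the arrays after IVM -4.66, -5.95, -4.50, and -4.61, of which replicate 2 was not above background. The groups did not overlap. The difference was -2.04 (SE 0.32, 95% interval -2.76 to -1.32, adjusted p = 0.0011). The gene value combines both probes, and probe 1 was above background on no array after IVM, so its part of the difference is measured against background. Probe 2, above background on 3 arrays after IVM, gave -1.81 (adjusted p = 0.0082). With normexp background correction the difference of the gene value was -0.25 and did not pass (adjusted p = 0.080). HMMR was highest in the oocyte (-1.75 to -1.32) and lowest in CC after IVM, which lay 0.94 under TH (adjusted p = 0.023).

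The CC arrays of each slide were also taken alone against CC after IVM. For HAS2 the difference was 7.92 against the first slide and 7.60 against the second, and for HMMR it was -1.999 and -2.07, all still called. TNFAIP6 was called against the first (2.35, adjusted p = 0.037) and not against the second (1.71, adjusted p = 0.083), and CD44 against neither (1.61, adjusted p = 0.067, and 1.21, adjusted p = 0.15). Each used 2 CC arrays, and neither separates maturation from the slide of the matured cells.

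Among the 4 immature cell types all 7 genes passed the F-test over the 16 arrays, where 71.3% of all genes did. HAS3 was nearest to the threshold (adjusted p = 0.031). The pairs share their arrays and are given side by side. Between GC and CC, 3 of the 7 were called, where 9.88% of all genes were. CD44 was higher in GC (background in this direction 4.61%), and HAS2 and VCAN were higher in CC (5.27%). The CD44 call (adjusted p = 0.0080) was made with CC below background, so its size was not measured, and it was lost with normexp correction (0.43, adjusted p = 0.20), in the deposited table (0.28, adjusted p = 0.22), and within either slide (1.69 and 0.80, adjusted p = 0.088 and 0.41).

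Between TH and CC (background 31.8%) 5 were called, with CD44 higher in TH (14.4%) and HAS2, TNFAIP6, VCAN, and HMMR higher in CC (17.4%). The HAS2 call was lost with normexp correction (TH minus CC -0.42, adjusted p = 0.18), as was the CD44 call (0.27, adjusted p = 0.42). The HMMR call was lost within the first slide (-0.69, adjusted p = 0.27) and on the brightest probe (-0.73, adjusted p = 0.079). HMMR probe 1 was above background on only 1 TH array. Between TH and GC (background 26.3%) 3 were called, with CD44 higher in TH (11.8%) and TNFAIP6 and VCAN higher in GC (14.5%). TNFAIP6 was at least 8.86-fold higher in GC (adjusted p = 0.0016), or at least 5.01-fold without GC replicate 2, and the call was lost within the first slide (adjusted p = 0.12). The 1.04 of CD44 was lost in the deposited table (0.15, adjusted p = 0.38), and its sign turned with normexp correction (-0.16, adjusted p = 0.46).

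Against the oocyte 6 genes were called in CC (background 63.7%), with TNFAIP6, PTX3, and VCAN higher in CC (32%) and HAS2, CD44, and HMMR higher in the oocyte (31.8%). The sign of CD44 turned with normexp correction (1.02, adjusted p = 4.8e-05) and in the deposited table (0.33, adjusted p = 0.021). By probe, CD44 probe 1 was above background on all 4 oocyte arrays (mean -2.11) and probe 4 on 3 (mean -4.91). Probes 2, 3, and 5 were above background on 0, 2, and 2 oocyte arrays, and no CD44 probe was on any CC array. In GC 6 genes were called (background 68.6%), with HAS3, TNFAIP6, PTX3, and VCAN higher than in the oocyte (37.9%) and HAS2 and HMMR lower (30.7%). HAS3 there differed by 0.68 on the gene value (adjusted p = 0.020). That call was lost without GC replicate 2 or oocyte replicate 2 (adjusted p = 0.065 and 0.052). The gene value of HAS3 includes probe 1, above background on no GC array and on 3 oocyte arrays. On HAS3 probe 2, above background on all 4 arrays of both groups, the means were -1.11 in GC and -3.22 in the oocyte. Over 30 alternatives the HAS3 difference ran from 0.43 to 2.28, and the call was lost in 5. In TH 5 genes were called (background 64.6%), with PTX3 and CD44 higher than in the oocyte (32.1%) and HAS2, VCAN, and HMMR lower (32.5%).

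CC after IVM was set against the other cell types in the fit of all 20 arrays. Against TH 4 of the 7 were called (background 43.7%), with HAS2, TNFAIP6, and VCAN higher after IVM (25.3%) and HMMR lower (18.5%). HAS2 was at least 179-fold and TNFAIP6 at least 143-fold higher, and VCAN was 25.9-fold higher. The HMMR call was lost without TH replicate 1 or 2 or replicate 2 after IVM (adjusted p 0.051 to 0.095), and its sign turned with normexp correction (0.24, adjusted p = 0.21). That call was also lost with scaling to the array median (-0.79, adjusted p = 0.059) and in the deposited table (-0.21, adjusted p = 0.30). Against GC the same 4 genes were called in the same directions (background 28.1%, with 13.9% higher and 14.3% lower). The HMMR call against GC was lost with normexp correction (-0.14, adjusted p = 0.49) and in the deposited table (-0.47, adjusted p = 0.056). VCAN was 2.89-fold higher (adjusted p = 0.0022) and TNFAIP6 16.2-fold (adjusted p = 1.2e-04), or 28.6-fold without GC replicate 2. Against the oocyte 5 were called (background 80.2%), with HAS2, TNFAIP6, PTX3, and VCAN higher after IVM (49.8%) and HMMR lower (30.4%).

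The order of the 5 groups differed between the genes. For TNFAIP6 it was CC after IVM, CC, GC, TH, and oocyte, and CC and GC did not pass the threshold (adjusted p = 0.083). TH and the oocyte, above background on 2 and 1 arrays, passed in this fit (adjusted p = 0.045) and not in that of 16 arrays (adjusted p = 0.055). For VCAN only CC after IVM and CC did not pass (adjusted p = 0.50). For CD44 no order is drawn from the gene value, since most of its probes were not above background in most groups. On probe 1 the means were -1.07 in TH, -2.11 in the oocyte, -3.68 after IVM, and -4.05 in GC, with CC below background on all 4 arrays, and these steps were not tested. For HMMR it was oocyte, CC, GC, TH, and CC after IVM, and neither CC and GC (adjusted p = 0.33) nor GC and TH (adjusted p = 0.31) passed. For HAS3 no neighbours passed on the gene value (adjusted p 0.068 to 0.997), which includes probe 1, not read on any somatic array. On HAS3 probe 2 the means were -1.11 in GC, -1.15 in TH, -1.40 after IVM, -2.03 in CC, and -3.22 in the oocyte. There TH exceeded CC (adjusted p = 0.013), and CC after IVM and CC did not pass (adjusted p = 0.15).

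The genes around the 7 were taken as lists. Of 12 hyaluronan precursor and turnover genes on the array, 8 were called higher after IVM and 1 lower, where 30.3% of all genes were higher and 15.5% lower. The median difference was 0.95, beside 0.37 over all genes. GFPT2, which makes the amino sugar that enters the UDP-sugar pathway, rose from -0.52 ± 0.72 (SD, n = 4) to 3.42 ± 0.62 (n = 4), a difference of 3.93 (adjusted p = 9.3e-05). UAP1, which forms UDP-N-acetylglucosamine, rose by 2.46 (adjusted p = 1.5e-05), and UGDH, which forms UDP-glucuronic acid, by 1.64 (adjusted p = 6.9e-04). CEMIP2, a cell surface protein linked to hyaluronan breakdown, rose by 3.05 (adjusted p = 2.7e-04), and the lysosomal hyaluronidase HYAL1 was called lower (adjusted p = 0.025), above background on 4 CC arrays and 1 array after IVM and therefore with no measured size, with the sign turned by normexp correction (0.32, adjusted p = 0.011) and the call lost without CC replicate 2 or 4 or replicate 1 or 4 after IVM (adjusted p 0.058 to 0.060). HAS1 and SPAM1 were among those called higher, by 0.68 and 0.75, but were above background on at most 1 of the 8 arrays.

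Of 22 hyaluronan-binding partners 6 were called higher and 1 lower, 31.8% of the list beside 45.8% of all genes, with a median difference of 0.52. Only HABP4 (0.98, adjusted p = 0.0023) and the matrix protein FBLN1 (1.03, adjusted p = 0.040) among the higher ones were above background on 3 arrays of a group, and FBLN1 was lost in 13 of 22 alternatives. ITIH2 (0.96), ITIH3 (1.59), the proteoglycan ACAN (0.68), and the receptor LYVE1 (0.89) were not read on 3 arrays of either group. STAB1, a scavenger receptor for hyaluronan, was above background on 4 CC arrays and on none after IVM, and was at least 1.23-fold lower (adjusted p = 0.0082), with a difference of 0.04 under normexp correction (adjusted p = 0.84). The ITIH genes encode heavy chains of the inter-alpha-trypsin inhibitor, which reach the follicle from serum.

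Of 17 signals of expansion 8 were called higher and 4 lower (median difference 0.54), where 30.3% of all genes were higher and 15.5% lower. LHCGR, 1 of the 8, was above background on 2 CC arrays and on none after IVM, so no rise was measured for it. The EGF-like ligands AREG and EREG were above background on no CC array and on all 4 arrays after IVM. AREG was at least 15.4-fold higher (adjusted p = 9.85e-06) and EREG at least 8.12-fold (adjusted p = 6.1e-05). PGR, the progesterone receptor, rose by 4.84 (adjusted p = 6.4e-06), and GREM1, an antagonist of bone morphogenetic proteins, by 2.89 (adjusted p = 6.7e-05). SMAD2 (-1.43, adjusted p = 0.0030) and SMAD3 (-1.34, adjusted p = 0.0030), which carry the signal of oocyte GDF9, were lower, as were BTC (-1.11, adjusted p = 0.0081) and the FSH receptor FSHR (-1.25, adjusted p = 0.028). The fall of FSHR was lost without any 1 of CC replicates 1, 3, or 4 or replicate 4 after IVM (adjusted p 0.055 to 0.069), and on its brightest probe the difference was 0.06 (adjusted p = 0.89). PTGS2, listed on the array as PGHS-2, showed -0.04 (adjusted p = 0.93).

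Of 10 proteases and inhibitors that cut versican or shed surface proteins, 6 were called higher and 2 lower (median difference 0.92). Over all genes 30.3% were higher and 15.5% lower. ADAMTS1, which cleaves VCAN, rose from 0.20 ± 0.46 (SD, n = 4) to 5.71 ± 0.56 (n = 4), a difference of 5.51 (adjusted p = 6.1e-06), while VCAN itself did not pass. ADAM17, which sheds EGF-like ligands, rose by 1.79 (adjusted p = 0.0013), and TIMP3, an inhibitor of such enzymes, by 1.63 (adjusted p = 0.0064). MMP14 (1.62, adjusted p = 0.047) was lost without CC replicate 1, 2, or 4 or replicate 1, 3, or 4 after IVM (adjusted p 0.059 to 0.12). ADAM10 was lower (-0.80, adjusted p = 0.025), a call lost without CC replicate 2, 3, or 4 (adjusted p 0.051 to 0.066), as was ADAMTS9 (adjusted p = 0.0097), which was above background on 3 CC arrays and on none after IVM and whose sign turned with normexp correction (0.38) and in the deposited table (0.02). ADAMTS5 (0.90) and ADAMTS20 (0.69) were called higher without being read on 3 arrays of either group.

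Of 12 mitosis genes set beside HMMR none was called higher and 10 were lower after IVM, where 15.5% of all genes were lower. All 12 were above background on 3 arrays of a group, and the median difference was -1.03. PLK1, a kinase of mitotic entry, fell by 3.16 (adjusted p = 1.2e-04), from 1.82 ± 0.45 (SD, n = 4) to -1.34 ± 0.62 (n = 4). TOP2A fell by 1.94 (adjusted p = 8.9e-04), the spindle motor KIF11 by 1.89 (adjusted p = 1.9e-04), and the checkpoint kinase BUB1 by 1.28 (adjusted p = 0.0021). CDK1 (-0.34, adjusted p = 0.18) and BRCA1 (-0.42, adjusted p = 0.24) did not pass.

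**Figure D4:**
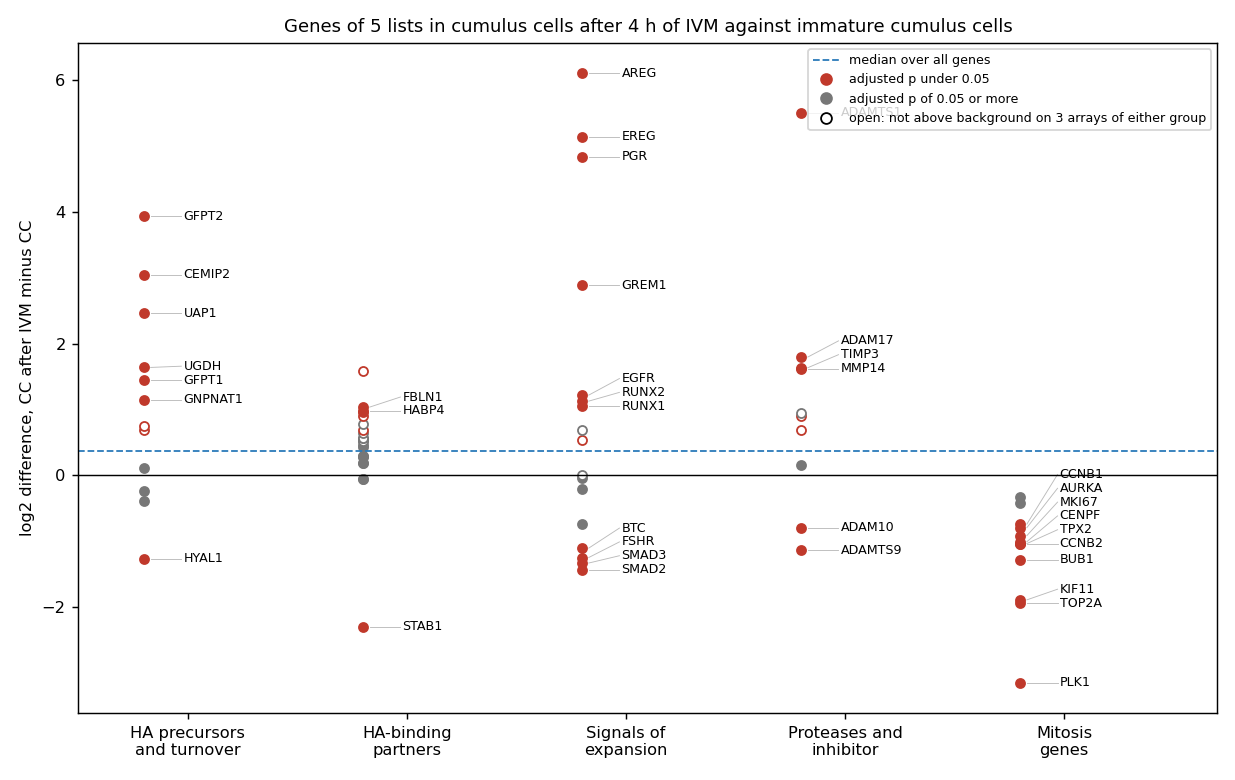
Difference in log2 gene expression value between cumulus cells after 4 h of IVM and immature cumulus cells for each gene of 5 lists (circle, estimate from 4 and 4 arrays), red for an adjusted p under 0.05 and open for genes not above background on 3 arrays of either group, with names for filled red circles. ADAMTS1 stands at 5.51, PGR at 4.84, and GFPT2 at 3.93, the points of AREG and EREG are differences from CC arrays on which they were not above background, and the mitosis genes all lie below 0.

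The genes whose values followed each member most closely over the 20 arrays were found by Pearson r among 15160 named genes above background on 3 arrays of at least 1 group. The 20 values of a gene fall into 5 groups of 4, so these correlations describe mainly the group means. For HAS2 they were ARL14EP (r = 0.98) and C18orf54 (0.98), for TNFAIP6 GAL (0.97) and FBXL2 (0.95), and for PTX3 RANGAP1 (0.91) and HEATR3 (0.90). For VCAN they were the integrin subunit ITGA2 (0.97) and RNFT1 (0.97), and for CD44 PCP4L1 (0.92) and the surface proteoglycan SDC2 (0.85). HMMR was followed by DCK (0.98) and ANLN, a protein of cytokinesis (0.96). For HAS3 the closest were PTBP3 (0.71) and ADAMTS5 (0.70).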

How the data were processed

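Arrays were grouped by their titles in the repository. The authors deposited, for each array, the Agilent Feature Extraction output (version 10.7.3.1, per the labels), in which intensity is given per spot and the processed signal is background-subtracted and not normalized between arrays, and a table of log2 values, which the scanner values show to be log2 median signal minus the array median, within 5.0e-09. The deposited marks of signal well above background were kept, and spots the scanner software marked as outliers were dropped.

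The 7 genes and the lists were chosen with earlier results of these data known. Of 61325 probes, 9779 had no gene name, and 734 of these were matched by RefSeq accession. The median over the spots of a gene was taken, as in the study's methods. limma 3.58.1 in R 4.3.3 was used (lmFit, eBayes), on 8 arrays for CC after IVM against CC, 16 for the immature cell types, and 20 for CC after IVM against the others, two-sided, with Benjamini-Hochberg adjustment over all 22550 genes. The fits were tested on simulated data. Where the dimmer group was above background on fewer than 3 of 4 arrays, a fold is given only as a bound, and a fitted difference printed for such a gene or probe is measured against background and is no size of change. Called genes of a list were named in full up to 8, and otherwise the 4 largest rises and 4 largest falls. HAS1, SPAM1, LHCGR, PTGS2, CDK1, and BRCA1 were named after their values were seen. Marker genes were used to check the labels. Each array was taken as its deviations from the mean of its group, and these were correlated over genes. The replicate numbers did not pair the CC and CC after IVM arrays (correlation of the deviations of arrays of 1 number -0.22 to -0.04). Among the 4 immature cell types such correlations ran from -0.27 to 0.44, and pairing there was not settled. The deposited table was an alternative, as were other normalizations, normexp correction (offset 50), probe rules, a filter on dim genes, slide, and single arrays left out. Figures were made in Python 3.11.15 with matplotlib 3.10.9.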

Additional observations from a re-analysis of the deposited data

Results flagged for a closer look

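One value stood far from the other arrays of its group. HMMR in CC after IVM replicate 2 was at -5.95, while the other 3 arrays of the group lay at -4.66 to -4.50, and the gap took 0.894 of the range of the group, over Dixon's 95% value of 0.829 for 4 samples. This array was the only one of its group on which HMMR was not above background. Such a test marks about 1 in 20 groups by chance, and 35 groups of 4 arrays were tested.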

How the results depend on the processing

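Of 1397 values of the 7 genes under an alternative, 1343 kept their direction and side of the threshold, 39 lost the call, 3 gained it, and 12 turned their sign; of 698 for the list genes, 614 kept them, 79 lost the call, and 5 turned. HAS2 after IVM minus CC stayed called under all 22 alternatives (5.16 to 8.11). The number of the 7 called after IVM fell from 4 to 2 against the CC arrays of the second slide alone (HAS2 and HMMR), and the list genes called fell from 46 to 24 and 20 against the first and second slide alone, each with fewer arrays. With normexp correction the sign turned for PTX3 (0.0095), HYAL1 (0.32), STAB1 (0.043), and ADAMTS9 (0.38) after IVM minus CC, CD44 in TH minus GC (-0.16) and in CC minus oocyte (1.02), HAS2 in GC minus CC (0.027), and HMMR after IVM minus TH (0.24). In the deposited table it turned for VCAN (-0.11), ADAMTS9 (0.017), and CD44 in CC minus oocyte (0.33), on the brightest probe for FSHR (0.065), and against the first slide alone for PTX3 (0.26). The cause was not tested. With single arrays left out, PTX3 ranged from -0.57 to 0.20 (0.03 and 0.003 without CC replicates 3 and 4) and VCAN from -0.066 to 0.70, members called from 3 to 5 after IVM against CC, from 6 to 7 in the F-test, and from 12 to 14 (13 with all arrays) after IVM against the other cell types, and list genes called from 32 to 47.

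The split of all calls after IVM moved with the scaling, from 6824 higher and 3505 lower (66.1% higher) to 2754 and 3623 with quantile normalization (43.2%), 14768 and 2946 with normexp correction (83.4%), and 3259 and 3494 among the 14760 genes read on 3 arrays of a group (48.3%). Against the first and second slide alone it was 1952 and 1758, and 1736 and 1854. The replicate number was also used as a block, although the numbers did not pair the CC and CC after IVM arrays. With it 4 members were called after IVM against CC, 6 in the F-test, 14 after IVM against the other cell types, and 35 list genes. Over all genes 4153 were then higher after IVM than in CC and 2899 lower. A fixed slide block could not be fitted for CC after IVM against CC. Alternatives with the CC arrays of 1 slide, a random slide block, and spots of 1 sequence averaged first were chosen after seeing the data. Dim probes limit CD44 in CC, where no probe was above background.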
